A study of Mus musculus with 15 samples.

Results

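Leukemia stem cells in the blood were set against cells labelled as their counterparts from normal bone marrow. The leukemia models chronic myeloid leukemia in blast crisis (bcCML) in the mouse, and leukemia cells carrying the human oncogenes BCR-ABL and NUP98-HOXA9 were transplanted into recipients. The members are the genes listed at 1 or more FPKM (fragments scaled by gene length and sequencing depth) in peripheral blood leukemia stem cells (BL LSC) or in the normal bone marrow counterparts (NBM), 8944 of the 23359 genes in the table. The choice used the level in either group and not the difference between them.

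The study holds 15 libraries, 3 in each of 5 groups: LSC from bone marrow (BM LSC), spleen (SPL LSC), blood (BL LSC) and gonadal adipose tissue (AT LSC), and NBM. The mice were female and 3 months old, and LSC were collected 12 days after transplantation. The strain and treatment entries for NBM repeat those of the LSC, so the genotype of the normal mice is known only from the words "normal bone marrow". The labels state no surface gate for LSC or NBM and do not state which mice each library came from, so the deposited tests may measure technical spread. BL LSC and NBM also come from different tissues, and leukemia and site cannot be told apart in this comparison alone.

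BCR-ABL is a fusion kinase that signals through STAT5 and RAS, and NUP98-HOXA9 is a fusion transcription factor that holds myeloid progenitors in an immature state together with MEIS1 and PBX partners. Leukemia stem cells are the cells of a leukemia that can start it again in a new host. Normal stem and progenitor cells are kept in the marrow largely by the chemokine receptor CXCR4 and by integrins that bind VCAM1, and cells that leave for the blood usually do so with lower CXCR4 signalling.

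The authors deposited 1 pooled FPKM per gene and group and 1 test per gene from Cuffdiff, so no value of a single library exists here and each level below is the authors' pooled value. A gene was called when the authors' deposited table gave it a completed test and a q-value below 0.05, and a fold is the log2 of BL LSC over NBM with the standard error (SE) that fold and test statistic imply. By that rule the authors' deposited table held calls for 39.0% of 8813 tested members, 1131 higher in BL LSC (12.8%) and 2306 lower (26.2%). The other 131 members had no completed test. The median fold of all tested members was -0.42, and centring folds on it gave 1848 higher (21.0%) and 1458 lower (16.5%). Upper quartile scaling gave 19.8% and 17.8%, and total count scaling 14.3% and 28.6%, so the balance between directions depended on the scaling and is not read as a result. List medians below are given relative to that median. Among the 6929 members at 1 or more FPKM in both groups, 6825 were tested and 32.6% were called. A further 1295 members passed only through NBM and 720 only through BL LSC. These could lie only on the side that admitted them, and 62.5% and 58.1% of their tested members were called. That limit holds for every gene named below with less than 1 FPKM in NBM or in BL LSC. Just outside the limit were Ina at 0.189 FPKM in NBM and 0.9995 in BL LSC and Rcbtb1 at 0.9996 and 0.372, and just inside was Hoxa4 at 0.534 and 1.00.

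**Figure D1:**
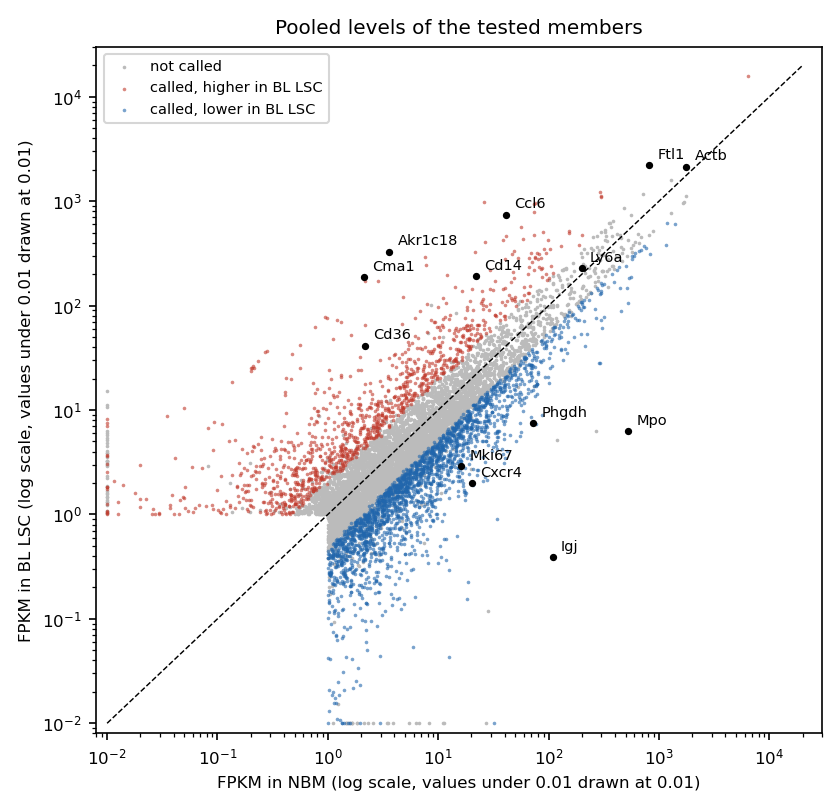
Each point is 1 tested member, with its pooled FPKM in NBM on the horizontal axis and in BL LSC on the vertical axis, both on log scales with values under 0.01 drawn at 0.01. Red points were called higher in BL LSC and blue points lower, the dashed line marks equal levels, and the named genes show Mpo and Igj far below the line and Akr1c18, Cma1 and Cd36 far above it.

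Most listed genes of cell division were lower in BL LSC. Of 44 tested genes of the mitotic spindle and chromosome segregation 38 fell and 0 rose in the authors' deposited table, and of 39 genes of DNA replication and nucleotide synthesis 36 fell and 0 rose. Their median log2 folds relative to all members were -2.35 and -2.01, and centring left 37 and 35 called lower. Of the members at 1 or more FPKM in both groups, 25 of 27 mitotic and 27 of 30 replication genes fell in the authors' deposited table. Mki67, the proliferation antigen, stood at 16.2 FPKM in NBM and 2.90 in BL LSC, a log2 fold of -2.48 ± 0.33 in the authors' deposited table. Its deposited bounds, 2 standard deviations on either side, were 12.3 to 20.2 FPKM in NBM and 1.78 to 4.02 in BL LSC and did not overlap.

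Aurka, the mitotic kinase of the centrosome, stood at 17.6 and 1.38 FPKM, a log2 fold of -3.67 ± 0.36 in the authors' deposited table. Plk1, the kinase that drives entry into and exit from mitosis, stood at 17.0 and 1.64 FPKM (-3.37 ± 0.37). Bub1, of the spindle checkpoint, and Kif2c, a motor that takes apart microtubule ends, had folds of -3.47 ± 0.39 and -3.35 ± 0.39 in the same table. These are the 4 mitotic genes with the smallest q-values, and the 150 bases before their RefSeq start are shown because CCAAT boxes, bound by the factor NF-Y, are common in promoters of mitotic genes. Capitals mark CCAAT or its reverse complement ATTGG, the sequences are those of RefSeq on GRCm38.p6, each is written 5′ to 3′ on the gene's own strand, and the coordinates are Aurka chr2:172370571-172370720 (minus strand), Bub1 chr2:127831860-127832009 (minus), Plk1 chr7:122159285-122159434 (plus) and Kif2c chr4:117178773-117178922 (minus).
Aurka: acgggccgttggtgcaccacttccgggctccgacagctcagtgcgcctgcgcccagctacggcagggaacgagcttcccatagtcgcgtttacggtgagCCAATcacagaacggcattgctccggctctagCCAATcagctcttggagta
Bub1: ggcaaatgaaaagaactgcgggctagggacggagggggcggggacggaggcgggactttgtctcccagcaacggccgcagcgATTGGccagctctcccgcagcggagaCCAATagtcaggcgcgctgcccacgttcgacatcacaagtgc
Plk1: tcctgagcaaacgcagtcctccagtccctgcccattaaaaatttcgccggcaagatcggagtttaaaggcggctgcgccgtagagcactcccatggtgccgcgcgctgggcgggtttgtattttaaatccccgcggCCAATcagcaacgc
Kif2c: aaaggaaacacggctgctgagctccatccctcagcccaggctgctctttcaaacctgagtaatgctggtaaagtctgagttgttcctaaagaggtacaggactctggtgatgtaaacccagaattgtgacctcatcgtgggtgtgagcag

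The windows of Aurka and Bub1 each held 2 matches, that of Plk1 held 1, and that of Kif2c held 0, which says only that these letters are not in this window. Over the full RefSeq promoter window, 250 bases before to 50 after the start, CCAAT on either strand was found in 29 of the 37 mitotic list promoters that could be matched (78.4%), against 37.4% of all 32851 promoters in the table. It was found in 33.3% of 36 promoters of ribosome biogenesis genes and in 45.8% of 24 promoters of serine, one-carbon and nucleotide supply genes. Both of these lists also fell. Among monocyte genes, most of which rose, it was found in 17.2% of 29 promoters. A match describes the sequence and is not a measured binding site.

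The replication genes that fell ran from helicase loading to nucleotide salvage. Mcm10 and Cdc6, which load and fire the replicative helicase, stood at 6.82 and 8.73 FPKM in NBM and 0.550 and 0.879 in BL LSC, with folds of -3.63 ± 0.37 and -3.31 ± 0.37 in the authors' deposited table. Mcm5, a helicase subunit, stood at 39.4 and 5.31 FPKM (-2.89 ± 0.34), and Tk1, the salvage thymidine kinase, at 27.4 and 2.15 (-3.67 ± 0.41). Of 28 DNA repair genes 26 fell, among them Fancd2 of the Fanconi pathway (1.39 to 0.0834 FPKM), Exo1, an exonuclease of mismatch and break repair (2.43 to 0.197), and the checkpoint kinase gene Chek1 (2.62 to 0.249). These 3, and Mcm10 and Cdc6 above, passed the FPKM limit only through NBM and could lie only lower. The repair list overlaps in function with replication. After centring 23 of the 28 were lower, at 5 or more FPKM 6 were lower, and 8 of the 28 were at 1 or more FPKM in both groups, all 8 lower.

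Regulators of the cycle moved in both directions. Of 18 cyclin, E2F and pocket protein genes 9 fell and 1 rose in the authors' deposited table, but of the 10 at 1 or more FPKM in both groups 2 fell and 1 rose. Cdk4, the kinase that acts with D cyclins in G1, stood at 100.3 FPKM in NBM and 18.2 in BL LSC (-2.47 ± 0.33), E2f8, a repressor that peaks in S phase, at 5.07 and 0.674 (-2.91 ± 0.39), and Tfdp1, the partner of E2F factors, at 16.9 and 3.79 (-2.16 ± 0.36). Of 17 cell cycle brakes 8 rose and 3 fell, and of the 14 at 1 or more FPKM in both groups 6 rose and 2 fell. Cdkn1a, which encodes p21, stood at 10.9 and 33.5 FPKM (1.61 ± 0.36 in the authors' deposited table) and Klf2, a quiescence factor of blood cells, at 3.54 and 20.3 (2.52 ± 0.40). Cdkn2b, the gene of the inhibitor p15, was at 0.0506 FPKM in NBM and 1.15 in BL LSC. Cdkn3 fell with the mitotic genes, from 7.44 to 1.22 FPKM. Of 18 p53 targets 6 rose and 5 fell (9 and 3 after centring), and Trp53 itself fell from 66.9 to 18.9 FPKM while Pmaip1, which encodes the death protein NOXA, rose from 16.7 to 52.1.

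Biosynthesis genes that supply growing cells were lower with division. Of 41 ribosome biogenesis factors 39 fell and 0 rose in the authors' deposited table, and of 26 genes of serine, one-carbon and nucleotide supply 24 fell and 0 rose. After centring, 31 and 24 of these were still lower. Nolc1, a nucleolar scaffold, stood at 19.3 and 3.70 FPKM (-2.38 ± 0.34 in the authors' deposited table) and Polr1b, a subunit of RNA polymerase I, at 7.23 and 1.30 (-2.47 ± 0.37). Phgdh, the first enzyme of serine synthesis, stood at 72.3 and 7.43 FPKM (-3.28 ± 0.35), and the serine hydroxymethyltransferase genes Shmt1 and Shmt2 at 17.4 and 44.4 in NBM against 1.55 and 5.83 in BL LSC. Umps, which completes uridine monophosphate synthesis, stood at 32.9 and 4.84 FPKM (-2.76 ± 0.33). Myc, the transcription factor known to drive this group of genes, stood at 39.2 and 5.90 FPKM (-2.73 ± 0.35 in the authors' deposited table), and Mxd1, which competes with MYC for its partner MAX, at 1.04 and 11.7 (3.50 ± 0.43). Of 10 tested MYC family and partner genes 2 rose, Mxd1 and Mycn, and 1 fell (3 and 1 after centring). A link between Myc and the biosynthesis genes was not tested.

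Protein folding and translation lists had smaller shares of genes that fell. Of 26 heat shock and chaperonin genes 17 fell and 1 rose in the authors' deposited table, led by the mitochondrial chaperonins Hspd1 (98.2 to 20.9 FPKM) and Hspe1 (65.4 to 14.7). Cytosolic ribosomal protein genes gave 26 lower and 0 higher of 55, but 3 lower and 0 higher after centring, their median relative to all members being -0.44. Translation factors gave 12 lower of 25 (4 after centring) and tricarboxylic acid cycle genes 10 lower and 1 higher of 23 (5 and 1 after centring). Oxidative phosphorylation genes gave 12 lower of 39 (30.8%), near the 26.2% of all members. After centring 3 of the 39 were lower, against 16.5% of all members, so this list is not read as one that fell. Fh1, which encodes fumarase, stood at 38.9 and 8.69 FPKM (-2.16 ± 0.34 in the authors' deposited table). Asns, the asparagine synthetase gene and a target of ATF4, fell from 31.6 to 4.46 FPKM (-2.83 ± 0.35), and Nupr1, a stress-induced gene in the same list, rose from 20.6 to 90.2. Of 23 ATF4 and unfolded protein response genes 3 rose and 10 fell, and the balance flipped to 5 higher and 4 lower after centring.

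**Figure D2:**
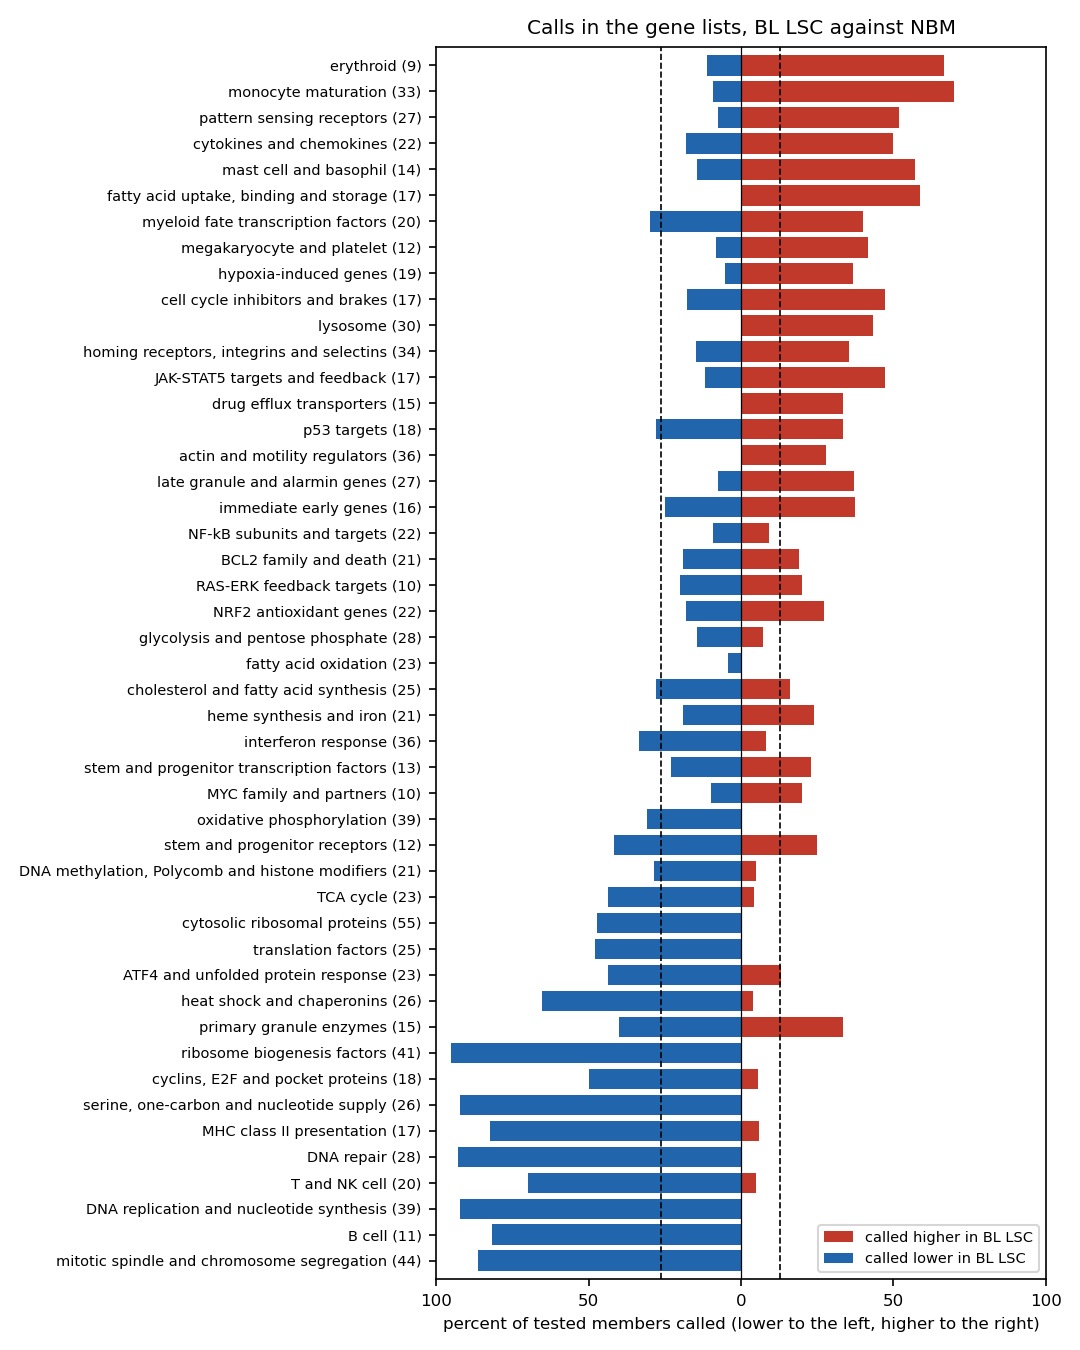
Bars give the percent of tested members of each gene list that were called higher in BL LSC (red, right) or lower (blue, left), with the number tested in parentheses, for lists with 9 or more tested members, ordered by median fold. The dashed lines mark the background of all members, 12.8% higher and 26.2% lower. Division, repair, ribosome biogenesis and one-carbon lists lie between 86.4% and 95.1% lower, and monocyte and erythroid lists at 69.7% and 66.7% higher.

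Surface markers of immature cells did not move together. Kit, the stem cell factor receptor, stood at 10.4 FPKM in NBM and 2.26 in BL LSC (-2.20 ± 0.35 in the authors' deposited table), and Cd34, a progenitor sialomucin, at 40.0 and 7.92 (-2.34 ± 0.39). Flt3, a receptor of lymphoid-primed progenitors, stood at 4.64 and 0.764 FPKM (-2.60 ± 0.38). Ly6a, which encodes the stem cell antigen SCA-1, was at 199 and 231 FPKM and was not called (0.21 ± 0.35, q 0.76 in the authors' deposited table). Over the list of stem and progenitor receptors 3 of 12 rose and 5 fell. The pan-leukocyte gene Ptprc stood at 27.1 and 54.3 FPKM, so BL LSC carried hematopoietic RNA, but markers alone do not show that the cells are stem cells.

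Of 7 tested HOXA genes and cofactors, the authors' deposited table held 2 that rose and 0 that fell. Both that rose, Hoxa9 and Pbx3, passed the FPKM limit only through BL LSC and could lie only higher. Hoxa9 stood at 0.771 FPKM in NBM and 2.78 in BL LSC (1.85 ± 0.43 in the authors' deposited table), and whether reads of the human fusion were assigned to the mouse gene was not tested. Pbx3, a HOX partner, stood at 0.379 and 5.01 FPKM (3.73 ± 0.49), whereas Meis1, the other partner, was at 6.65 and 5.01 and was not called (-0.41 ± 0.44, q 0.60 in the authors' deposited table, 0.01 after centring). Hoxa6 and Hoxa7 were at 1.74 and 2.91 FPKM in NBM and 3.38 and 4.65 in BL LSC and were not called. Myb, which normal progenitors need, fell from 2.78 to 0.255 FPKM (-3.45 ± 0.54), and Mycn, a relative of Myc, rose from 0.203 to 1.20 (2.57 ± 0.55).

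STAT5 target and feedback genes gave 8 higher and 2 lower of 17, and 11 and 1 after centring. Cish, a feedback inhibitor of cytokine receptors, stood at 9.25 FPKM in NBM and 69.0 in BL LSC (2.90 ± 0.37 in the authors' deposited table), and Socs2, another inhibitor, at 1.27 and 9.47 (2.90 ± 0.47). Il2ra, the alpha chain of the interleukin-2 receptor, stood at 1.03 and 24.2 FPKM (4.55 ± 0.43), and Osm, the oncostatin M gene, at 10.9 and 118 (3.43 ± 0.39). The survival genes Bcl2l1 and Mcl1 rose from 4.75 and 7.0 FPKM to 10.1 and 15.3, and Bcl2 was at 5.01 and 6.48 and was not called. The D-type cyclin gene Ccnd1 and Stat5a were the members that fell. Feedback genes of the RAS-ERK pathway, which BCR-ABL also engages, gave 2 higher and 2 lower of 10 (4 and 2 after centring). Dusp6, an ERK phosphatase, was at 17.3 and 17.7 FPKM and was not called, while Egr1, an early ERK target, fell from 6.5 to 1.36 (-2.26 ± 0.38 in the authors' deposited table).

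Monocyte maturation genes mostly rose. Of 33 tested genes 23 rose and 3 fell in the authors' deposited table (24 and 3 after centring), against 12.8% and 26.2% of all members. Emr1, which encodes the macrophage antigen F4/80, stood at 4.84 FPKM in NBM and 122 in BL LSC (4.65 ± 0.37 in the authors' deposited table), and Cd14, a co-receptor for lipopolysaccharide, at 21.9 and 191 (3.12 ± 0.37). Pilrb1, an activating myeloid receptor, stood at 16.4 and 140 FPKM (3.09 ± 0.39), and Treml4, a receptor of nonclassical monocytes, at 6.51 and 48.7 (2.90 on the log2 scale). Csf1r, the receptor for the monocyte growth factor M-CSF, and Cx3cr1, the fractalkine receptor, moved less, from 22.4 and 7.14 FPKM to 54.2 and 20.3 (1.27 ± 0.39 and 1.51 ± 0.44 in the same table). Ccr2, the receptor that takes inflammatory monocytes out of marrow, was at 41.7 and 43.2 FPKM and was not called, and neither were Ly6c1 and Ly6c2, near-identical genes whose reads can be split between them, at 308 and 301 against 306 and 303. Ms4a4c, Fcgr1 and Apoe were the 3 genes that fell. In bulk RNA, a different number of monocytic cells and a different level per cell cannot be told apart, and this holds for every list here.

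Parts of the sensing, lysosome and late granule lists also rose. Pattern sensing receptors gave 14 higher and 2 lower of 27. Trem1, an amplifier of inflammatory signals, stood at 6.78 FPKM in NBM and 39.0 in BL LSC (2.52 ± 0.36 in the authors' deposited table), and Marco, a scavenger receptor, at 0.0817 and 6.72 (6.36 ± 0.63). Lysosome genes gave 13 higher and 0 lower of 30, with Ctsd, a major lysosomal protease, at 98.9 and 424 FPKM (2.10 ± 0.34) and Lipa, the acid lipase that frees cholesterol, at 14.1 and 58.6 (2.05 ± 0.35). Late granule and alarmin genes gave 10 higher and 2 lower of 27, led by Anxa1, an anti-inflammatory annexin, at 58.1 and 437 FPKM (2.91 ± 0.35 in the authors' deposited table), S100a6 at 48.3 and 336, and S100a10 at 53.1 and 286.

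The list of primary granule enzymes, which are made at the promyelocyte stage, was split in its calls. Its median log2 fold relative to all members was -1.44. The list also counts the eosinophil genes Prg2 and Epx, and Hdc, which is in the mast cell and basophil list too. Mpo, myeloperoxidase, stood at 524 FPKM in NBM and 6.23 in BL LSC, a log2 fold of -6.39 ± 0.34 in the authors' deposited table, with bounds of 406 to 641 and 3.64 to 8.82. Elane, neutrophil elastase, was at 270 and 6.25 FPKM but was not called, since its SE was 2.95 on a log2 fold of -5.43 (q 0.20 in the authors' deposited table). The eosinophil granule genes Prg2 and Epx fell from 39.3 and 10.4 FPKM to 3.08 and 0.493. Hdc, the histamine-forming enzyme, rose from 21.6 to 326 (3.91 ± 0.37), and Srgn, the proteoglycan on which granule proteins are stored, from 292 to 1223 (2.07 ± 0.34 in the same table). The list gave 5 higher and 6 lower of 15, a balance that flipped to 6 and 5 after centring.

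Myeloid transcription factors followed both directions, with 8 of 20 higher and 6 lower in the authors' deposited table (12 and 6 after centring). Irf8, needed for monocytes and dendritic cells, stood at 10.9 FPKM in NBM and 0.863 in BL LSC (-3.66 ± 0.40 in the authors' deposited table). Nr4a1, needed for nonclassical monocytes, stood at 17.6 and 75.5 FPKM (2.11 ± 0.36). Cebpb, which drives monocyte maturation under stress, rose from 0.316 to 2.12, and Id2 from 74.2 to 219. The dendritic cell factor genes Irf4 and Batf3 fell from 2.39 and 3.25 FPKM to 0.526 and 0.949.

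Homing and adhesion genes included some of the clearest differences. Cxcr4 (chromosome 1, 128588199 to 128592299 in mm10) stood at 20.2 FPKM in NBM and 1.99 in BL LSC, a log2 fold of -3.34 ± 0.37 in the authors' deposited table, with bounds of 14.4 to 25.9 and 1.15 to 2.83. Vcam1, the marrow ligand of the integrin VLA-4, stood at 2.95 and 0.0439 FPKM (-6.07 ± 0.62), the latter from 11.4 estimated fragments. Cxcr3, a receptor of activated lymphocytes, fell from 5.65 to 0.296 (-4.25 ± 0.47). Several integrin genes went the other way, with Itgam at 10.4 and 42.0 FPKM, Itgb2 at 65.9 and 289 and Itga5 at 1.5 and 7.31, all called. Cd9, a tetraspanin of the cell surface, stood at 29.2 and 218 FPKM (2.90 ± 0.36 in the authors' deposited table) and Cd44, a receptor for hyaluronan, at 16.6 and 50.6 (1.61 on the log2 scale). Itga4, of VLA-4, was at 3.11 FPKM in NBM and 4.85 in BL LSC and was not called. The list gave 12 higher and 5 lower of 34 and, after centring, 22 and 4. Actin and motility genes gave 10 higher and 0 lower of 36 (17 and 0 after centring), with Vim, the intermediate filament gene of migrating cells, at 77.9 and 320 FPKM (2.04 ± 0.33 in the authors' deposited table) and Capg, an actin capping gene, at 20.4 and 144 (2.82 ± 0.46).

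**Figure D3:**
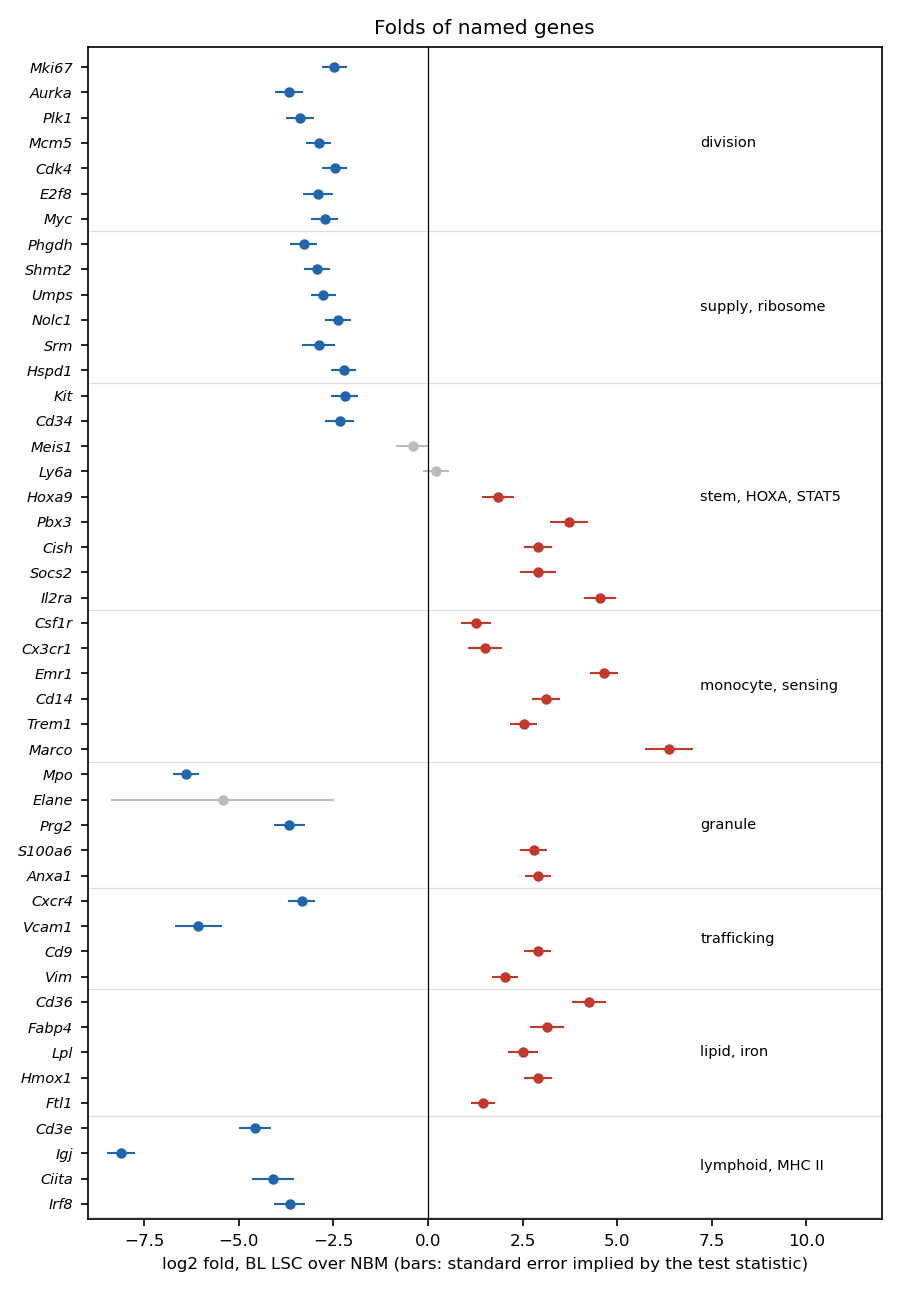
Points are log2 folds of BL LSC over NBM for genes named in the text, grouped by role, and bars are 1 standard error either side. Red and blue genes were called higher and lower and grey genes (Meis1, Ly6a and Elane) were not called. Elane has the widest bar, at 2.95.

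Lipid uptake and storage genes rose, whereas oxidation genes were rarely called. In the uptake, binding and storage list 10 of 17 genes rose and 0 fell (11 and 0 after centring), and of 23 oxidation genes 0 rose and 1 fell, which flipped to 2 and 0 after centring. Cd36, the fatty acid transporter, stood at 2.16 FPKM in NBM and 41.3 in BL LSC (4.26 ± 0.46 in the authors' deposited table). Fabp4, a carrier of fatty acids, stood at 3.57 and 31.8 FPKM (3.15 ± 0.45), Lpl, lipoprotein lipase, at 1.97 and 11.2 (2.5 ± 0.40), and Pparg, the regulator of these genes, at 0.874 and 4.72 (2.43 on the log2 scale). Hilpda, which blocks the release of stored fat, stood at 12.5 and 58.8 FPKM (2.24 ± 0.40 in the same table). These genes are also markers of macrophages, and the contribution of macrophage RNA was not tested.

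Other metabolic genes moved singly. Slc16a3, the lactate exporter, rose from 1.92 to 12.9 FPKM (2.75 ± 0.44 in the authors' deposited table), and Ldhb, the lactate dehydrogenase subunit that favours pyruvate, fell from 6.14 to 0.418 (-3.88 ± 0.48). The glycolysis and pentose phosphate list gave 2 higher and 4 lower of 28, and 8 and 2 after centring, so its direction flipped with the scaling. Hypoxia-induced genes gave 7 higher and 1 lower of 19 (11 and 1 after centring), among them Ero1l and Ndrg1, and Car9, a carbonic anhydrase, fell. Hmox1, which breaks down heme, stood at 9.27 and 69.0 FPKM (2.90 ± 0.37 in the authors' deposited table), and Slc11a1, the metal transporter of phagosomes, at 2.98 and 30.3 (3.35 ± 0.44). Ftl1, the ferritin light chain, was among the most abundant members of BL LSC at 2222 FPKM, against 813 in NBM (1.45 ± 0.32). Tfrc, the transferrin receptor of dividing cells, fell from 7.57 to 1.57 FPKM. Drug efflux transporters gave 5 higher and 0 lower of 15 (8 and 0 after centring), including Abcb1a, the gene of P-glycoprotein, at 1.55 and 4.16 (1.43 ± 0.39 in the authors' deposited table).

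Cytokine and chemokine genes gave 11 higher and 4 lower of 22, but of the 15 at 1 or more FPKM in both groups 7 rose and 1 fell. The rest, among them Csf2, Il12a and Cxcl10, could lie only on the side that admitted them. Ccl6 and Ccl9, chemokines of myeloid cells, stood at 40.8 and 14.2 FPKM in NBM and 743 and 152 in BL LSC (4.19 ± 0.38 and 3.42 ± 0.36 in the authors' deposited table). Csf2, the GM-CSF gene, stood at 0.286 and 2.77 FPKM (3.27 ± 0.63), and Il6 rose from 1.95 to 11.5. Il1b was at 3.75 and 7.88 FPKM and was not called (1.07 ± 0.43, q 0.058 in the authors' deposited table), and Tnf was at 2.15 and 1.00 and was not called. Il12a, a subunit of interleukin-12, fell from 8.0 to 0.343 FPKM, and the T cell chemokine genes Ccl5 and Cxcl10 from 79.5 and 6.42 to 23.3 and 0.568. Of 22 NF-kB subunits and targets 2 rose and 2 fell on the authors' scale, against 10 and 1 after centring, so the count depended on the scaling. Of 16 immediate early genes 6 rose, Klf2 and Nr4a1 among them, and 4 fell, Egr1 and Egr2 among them (8 and 3 after centring).

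Most listed genes of antigen presentation and lymphoid cells were lower, although many of the lymphoid genes passed the FPKM limit only through NBM. MHC class II presentation genes gave 14 lower and 1 higher of 17 (12 and 1 after centring). Of the 12 at 1 or more FPKM in both groups 10 were lower and 0 higher. Ciita, the activator of the class II genes, stood at 7.70 FPKM in NBM and 0.450 in BL LSC (-4.10 ± 0.55 in the authors' deposited table), H2-Aa and H2-Ab1, which encode class II chains, at 523 and 453 against 107 and 88.1, and Cd74, the invariant chain, at 1150 and 384. Cd80, a co-stimulatory ligand of myeloid cells, was the member that rose, from 0.488 to 4.66 FPKM (3.25 ± 0.45). Of 36 interferon response genes 3 rose and 12 fell, and 8 and 9 after centring, with Iigp1, an interferon-induced GTPase, at 11.6 and 0.585 FPKM (-4.32 ± 0.40 in the authors' deposited table) and Rsad2, the antiviral gene of viperin, rising from 0.633 to 3.32.

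Markers of other cells differed between the groups in both directions, and their part in the other results was not tested. B cell genes gave 9 lower and 0 higher of 11, and the summed level of the list was 199.6 FPKM in NBM and 10.8 in BL LSC. Summed levels here and below cover every listed gene found, tested or not. Igj, the immunoglobulin joining chain, stood at 109 and 0.392 FPKM (-8.12 ± 0.38 in the authors' deposited table), and Igll1, of the pre-B cell receptor, at 18.1 and 0.154 (-6.87 ± 0.65). T and NK cell genes gave 14 lower and 1 higher of 20, with Cd3e at 14.9 and 0.624 FPKM (-4.57 ± 0.43), Cd3g at 12.5 and 0.294 and Cd4 at 6.16 and 0.161. Igj, Igll1, Cd3e, Cd3g and Cd4 passed the FPKM limit only through NBM and could lie only lower. At 1 or more FPKM in both groups, 4 of 10 T and NK cell genes were lower and 1 higher, and 2 of 3 B cell genes were lower. The summed level of the T and NK cell list was 252 FPKM in NBM and 319 in BL LSC, because Gzmb, a granzyme that mast cells also make, rose from 18.4 to 96.9 and Nkg7 was at 110.2 and 194. Of the defining markers, the CD3 genes, Cd4, Igj and Igll1 lay below 1 FPKM in BL LSC, while Cd79b was at 2.47 and Lck, a T cell kinase, at 4.57.

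Of 9 erythroid genes 6 rose and 1 fell, and of the 7 at 1 or more FPKM in both groups 4 rose and 1 fell. The summed level of the list was 218 FPKM in NBM, 1551 in BM LSC and 2972 in BL LSC. In BM LSC against NBM 7 of the 9 were higher and 0 lower in the authors' deposited table. In BL LSC against BM LSC 3 were higher and 3 lower. The globin genes Hba-a2 and Beta-s, the alpha and beta chains of adult hemoglobin, stood at 4.38 and 41.4 FPKM in NBM and 348 and 468 in BL LSC (6.31 ± 1.72 and 3.50 ± 0.42 in the authors' deposited table), and near-identical globin copies can share reads. Gata1, the erythroid and megakaryocyte factor, rose from 3.51 to 15.6 FPKM, Alas2, of erythroid heme synthesis, from 0.845 to 4.24, and Car1, an erythroid carbonic anhydrase, was at 13.1 and 11.9 and was not called. Of 12 megakaryocyte and platelet genes 5 rose and 1 fell, but of the 8 at 1 or more FPKM in both groups 2 rose and 0 fell. The summed level of the list was 62.5 FPKM in NBM and 164 in BL LSC. The platelet genes Ppbp and Tubb1 rose from 0.720 and 5.16 FPKM to 4.21 and 17.0, and Pf4 was at 7.17 and 9.52 and was not called.

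Of 14 mast cell and basophil genes 8 rose and 2 fell, and the summed level of the list was 612 FPKM in NBM and 1387 in BL LSC. Cma1, a mast cell chymase, stood at 2.12 FPKM in NBM and 188 in BL LSC (6.47 ± 0.47 in the authors' deposited table), Mcpt4, another chymase, at 0.415 and 9.38 (4.50 ± 0.55), Mcpt8, a basophil protease, at 82.2 and 315, and Il1rl1, the receptor for interleukin-33, at 0.755 and 10.5 (3.80 ± 0.47). Fcer1a, the alpha chain of the IgE receptor, fell from 8.24 to 1.33, as did Kit, and Gata2, which these lineages need, was at 1.78 and 2.39 and was not called. Endothelial and stromal lists had 2 and 3 tested members, with summed levels of 21.8 and 50.3 FPKM in NBM and 27.1 and 67.5 in BL LSC. Egfl7, an endothelial factor also found in progenitors, fell from 5.62 to 0.424 FPKM, and Fn1, fibronectin, rose from 4.37 to 12.8 (1.55 ± 0.38 in the authors' deposited table).

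The largest folds among called members at 10 or more FPKM and with more than 3 estimated fragments in the lower group were held by gene clusters on the higher side. Of the 15 largest gains 9 were Vmn2r19 to Vmn2r27, vomeronasal receptor genes that lie in 1 stretch of chromosome 6 (from 123308333 to 124231784 in mm10). They stood between 0.134 (Vmn2r19) and 0.282 FPKM (Vmn2r26) in NBM and between 18.7 and 36.9 in BL LSC, with folds of 6.88 to 7.13 in the authors' deposited table. As close paralogs with nearly the same fold they may share reads, which was not tested. They are therefore not counted as 9 separate signals and are uncertain as expression of any 1 gene. Akr1c18 and Akr1c21, aldo-keto reductases of steroid metabolism on chromosome 13, stood at 3.59 and 0.987 FPKM in NBM and 329 and 76.3 in BL LSC (6.52 ± 0.49 and 6.27 ± 0.52 in the authors' deposited table). Crisp1 and Crisp3, secreted cysteine-rich proteins encoded on chromosome 17, stood at 0.937 and 0.768 FPKM against 78.3 and 61.8. Cma1 and Hba-a2, described above, complete the 15. Outside this rule, and chosen after its values were seen, the Trim43 family was called with almost no signal in NBM: Trim43a, Trim43b and Trim43c were listed at 0.00258, 0.00421 and 0 FPKM there and at 8.29, 7.02 and 7.59 in BL LSC.

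The 15 largest losses were genes of several lineages. Eltd1, an adhesion receptor of endothelial and stem cells, stood at 12.4 FPKM in NBM and 0.0434 in BL LSC (-8.16 ± 0.55 in the authors' deposited table). Kmo, a tryptophan-degrading enzyme of myeloid and dendritic cells, stood at 18.6 and 0.227 FPKM (-6.35 ± 0.45), Ly6d, a marker of lymphoid progenitors, at 34.1 and 0.913 (-5.22 ± 0.44), Cxcr6, a chemokine receptor of T cells, at 11.7 and 0.366 (-5.00 ± 1.26), and Gimap7, a lymphocyte GTPase, at 10.6 and 0.388 (-4.77 ± 0.49). The rest were Igj, Igll1, Mpo, Cd3g, Cd3e, Epx, Iigp1, Aurka, Tk1 and Prg2. Among the most abundant members, Actb and Actg1, the cytoplasmic actins, were at 1760 and 1282 FPKM in NBM and 2147 and 1596 in BL LSC, and neither was called. Eef1a1 was at 1667 and 969.5 FPKM and not called, Hspa8, a constitutive chaperone, fell from 1396 to 607, and Tmsb4x, an actin-binding peptide, was at 723 and 1169 and not called. Rps19-ps3, listed as a pseudogene of a ribosomal protein, was at 1279 and 778 FPKM, with reads it may share with its parent gene.

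The levels in the other LSC groups show which of these differences were also present in LSC of the marrow. All comparisons with NBM share the NBM libraries and all comparisons with BL LSC share the BL LSC libraries, so values are set side by side without a count of overlap. Over the same members, BM LSC against NBM gave 7.39% higher and 7.77% lower in the authors' deposited table, and BL LSC against BM LSC gave 11.9% higher and 25.3% lower. Division and growth genes lay near the NBM level in BM LSC: of 44 mitotic genes 1 was lower in BM LSC than in NBM and 37 were lower in BL LSC than in BM LSC. For ribosome biogenesis these counts were 0 and 37 of 41, and for serine, one-carbon and nucleotide supply 0 and 24 of 26. Plk1 stood at 17.0 FPKM in NBM, 14.8 in BM LSC, 21.9 in SPL LSC, 4.29 in AT LSC and 1.64 in BL LSC. Phgdh stood at 72.3, 58.2, 67.5, 21.2 and 7.43 FPKM in the same order. The fold of BL LSC over BM LSC was -3.17 for Plk1 and -2.97 for Phgdh in the authors' deposited table, both called.

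Lymphoid and class II genes showed the opposite arrangement. In BM LSC against NBM 13 of 17 class II genes, 9 of 11 B cell genes and 15 of 20 T and NK cell genes were lower in the authors' deposited table, and in BL LSC against BM LSC 1, 3 (of 10 tested) and 2 were. Cxcr4 stood at 20.2 FPKM in NBM, 1.98 in BM LSC, 2.93 in SPL LSC, 2.26 in AT LSC and 1.99 in BL LSC, and its fold of BL LSC over BM LSC was 0.01 and not called in the authors' deposited table. Against NBM it was called lower in BM LSC (-3.35), SPL LSC (-2.78) and AT LSC (-3.16) in the same table, and BL LSC were not shown to differ from BM LSC. In BM LSC against NBM the authors' deposited table also held calls for 2 of 7 HOXA genes and cofactors (both higher), 8 of 17 STAT5 genes (6 higher and 2 lower) and 11 of 13 mast cell and basophil genes (10 higher and 1 lower). STAT5 genes also differed between the 2 sites, with 7 of 17 higher and 1 lower in BL LSC against BM LSC in the same table. For HOXA genes and cofactors these counts were 0 and 1 of 7, and for mast cell and basophil genes 2 and 4 of 13. Among single genes, Pbx3 stood at 0.379, 6.0, 4.17, 3.83 and 5.01 FPKM in the same order of groups, Cish at 9.25, 57.3, 34.6, 53.9 and 69.0, and Cma1 at 2.12, 205, 70.8, 76.9 and 188. None of these 3 was called between BL LSC and BM LSC in the authors' deposited table, at -0.26, 0.27 and -0.13.

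Monocyte genes moved in opposite directions at the 2 sites. Of 33 monocyte genes 20 were lower and 3 higher in BM LSC against NBM, and 29 were higher and 0 lower in BL LSC against BM LSC in the authors' deposited table. Csf1r stood at 22.4 FPKM in NBM, 3.38 in BM LSC, 5.02 in SPL LSC, 22.9 in AT LSC and 54.2 in BL LSC. Cd14 stood at 21.9, 8.81, 9.01, 211 and 191 FPKM in the same order. Pattern sensing receptors gave 12 lower and 3 higher in BM LSC against NBM, and 18 higher and 0 lower of 27 in BL LSC against BM LSC.

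BL LSC and AT LSC were closer, with 2.98% of the members higher and 2.62% lower in BL LSC than in AT LSC in the authors' deposited table. Mitotic genes still differed, with 21 of 44 lower in BL LSC and 0 higher, whereas 2 of 41 ribosome biogenesis genes were lower. Mpo stood at 524 FPKM in NBM, 107 in BM LSC, 120 in SPL LSC, 113 in AT LSC and 6.23 in BL LSC, and Vcam1 at 2.95, 1.69, 3.74, 1.55 and 0.0439, so both were lowest in BL LSC. The log2 folds of BL LSC over AT LSC and over BM LSC were -4.19 and -4.10 for Mpo and -5.14 and -5.27 for Vcam1 in the authors' deposited table, all called. Cytokine genes gave 9 lower and 1 higher of 22 in BL LSC against AT LSC, with Csf2 at 79.8 FPKM in AT LSC and 2.77 in BL LSC, and monocyte genes gave 8 higher and 0 lower of 33, with Cx3cr1 at 3.59 and 20.3.

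**Figure D4:**
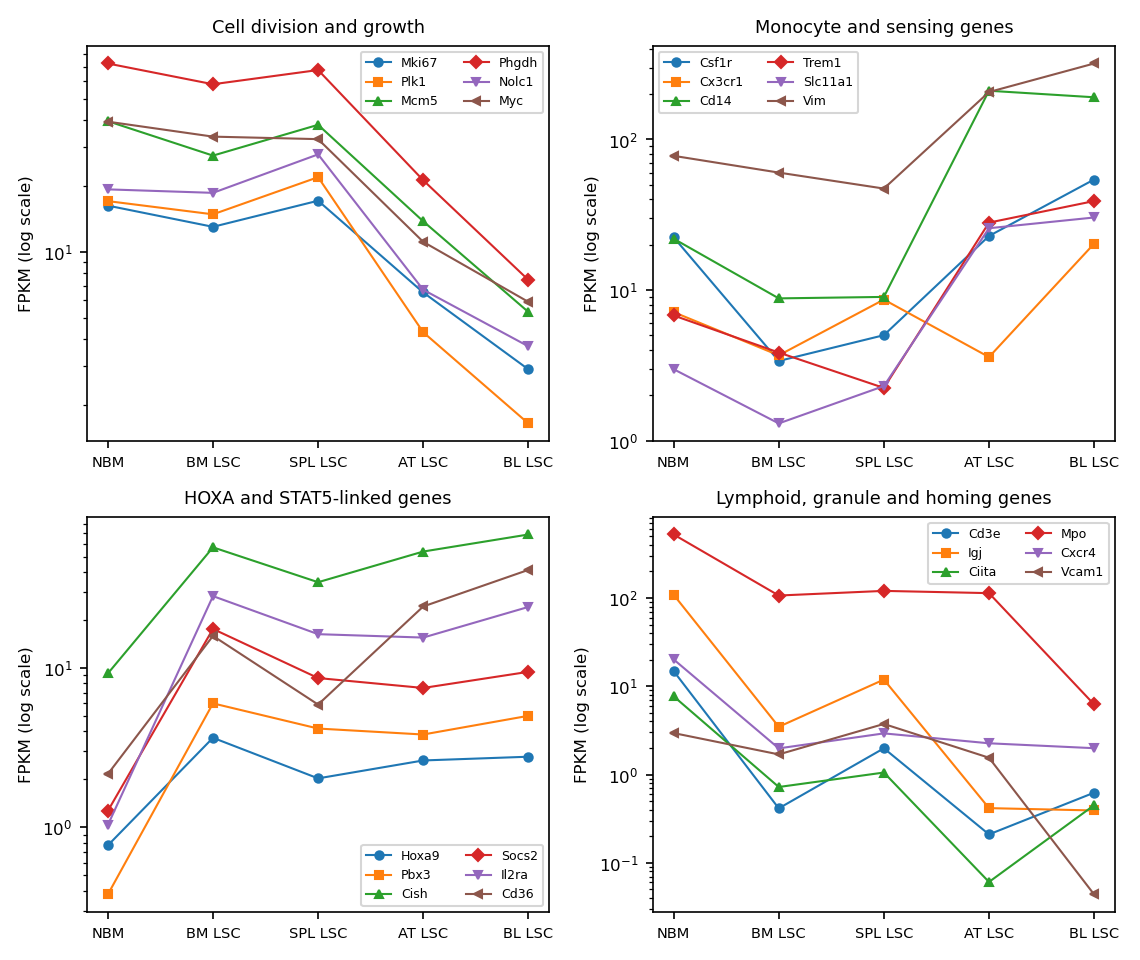
Pooled FPKM (log scale) of selected genes in the 5 groups, joined by lines to guide the eye, with 1 pooled value per point and no error drawn. Division and growth genes are lowest in BL LSC and near the NBM level in BM and SPL LSC, Csf1r and Cd14 are lowest in BM LSC, the plotted HOXA9-linked and STAT5 genes lie above their NBM level in all 4 LSC groups, and Cxcr4 is lower in all 4.

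Gene length and base composition were close between the classes. The longest GENCODE transcript had a median of 2925 bases among members called higher, 2834 among those called lower and 2958 among those not called, with a median GC content of 49.7%, 48.2% and 49.1%. The median SE of a log2 fold over tested members was 0.40 and the smallest fold called was 0.84 in size, so no smaller difference was called. The pooled columns held 1.95e+07 estimated fragments for NBM and 1.95e+07 for BL LSC.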

How the data were processed

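Extraction used Qiagen RNeasy Plus, and libraries for small RNA inputs used SMARTer chemistry and Nextera XT, per the labels' protocols. Trimmomatic 0.32, Cufflinks 2.0.2, Cuffdiff and mm10 are named in the submitters' processing notes. Aligner, annotation and Cuffdiff version: not given in the sources used here. For every group the authors deposited FPKM values and estimated counts pooled over its 3 libraries, and per comparison a log2 fold (ratio), a test statistic, p-values and q-values. A test per library, planned for count columns, was not possible on pooled columns, so the authors' tests were used. Adjusting all 127922 p-values of the 10 comparisons together (Benjamini-Hochberg) gave the deposited q-values to within 1.70e-06.

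Members were genes at 1 or more FPKM in either group, and calls used a q-value below 0.05. Folds were retested with the deposited SE after other scalings (scipy 1.17.1, tested on simulated data). Members and the 50 gene lists were chosen with earlier results of these data known. Genes named were the 15 largest gains and 15 largest losses among called members at 10 or more FPKM and more than 3 fragments in the lower group, up to 4 called members with the smallest q-value per list, 20 genes always named and the 5 most abundant per group, leaving out predicted, small RNA and merged entries. A few list members are counted but not reported here by name. Other list members with values in the text were picked after their values were seen. Promoters came from RefSeq and could be matched for 78.6% of tested members, so shares over called classes are void, and shares are given only for lists matched at 80% or more.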

Additional observations from a re-analysis of the deposited data

Results flagged for a closer look

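Named genes were flagged where BL LSC and BM LSC were called on opposite sides of NBM and the authors' deposited table also called the difference between them. This rule picked 6 genes and fixed their opposite directions in advance. The fold between the 2 sites follows from the 2 folds over NBM and is not separate support. Csf1r was higher than NBM in BL LSC (1.27) and lower in BM LSC (-2.73), and its log2 fold of BL LSC over BM LSC was 4.0. Cd14 was at 3.12 and -1.32 over NBM, with 4.44 between the 2 sites, and Slc11a1, the phagosomal metal transporter, was at 3.35 and -1.20, with 4.54. Fn1, fibronectin, was at 1.55 and -1.37, with 2.92, and Cx3cr1 at 1.51 and -0.95, with 2.46. E2f8, the S phase repressor, went the other way, at -2.91 in BL LSC and 1.04 in BM LSC over NBM, with -3.95 between them in the authors' deposited table. These comparisons share libraries, and each group has 1 pooled value, so no library can be examined on its own.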

How the results depend on the processing

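No paired analysis was possible because the deposited columns are pooled and carry no replicate numbers, and leaving out a library was not possible for the same reason. Members called higher, 1131 on the authors' scale, were 1848 after centring on the median of members, 1746 under upper quartile scaling and 669 at 5 or more FPKM. Members called lower, 2306, were 1458 after centring and 1283 at 5 or more FPKM. Members 2-fold higher, 1293, were 1906 after centring, 698 at 5 or more FPKM and 4968 without the FPKM limit. Members 2-fold lower, 2493, were 1511 after centring, 1263 at 5 or more FPKM, 5703 without the limit and 1543 with 1 added to both values. Total count scaling, adjustment within the comparison, q below 0.01 and leaving out merged entries kept the higher and lower counts within 1.5 times. Directions that turned were Meis1, at 0.0077 after centring, and the net counts (higher minus lower) of these lists: ATF4 and unfolded protein response, 1 after centring; DNA methylation and Polycomb, 1 after centring and 1 under upper quartile scaling; fatty acid oxidation, 2 and 2; glycolysis, 6 and 5; primary granule enzymes, 1 and 1; and p53 targets, -1 at 5 or more FPKM and -1 at q below 0.01 (6 higher and 5 lower as reported, 9 and 3 after centring). The cause was not tested. Of 207 named genes, 6 lost their call after centring and 5 under upper quartile scaling. The SE limits single genes: 47 of 1197 members past a log2 fold of 2 were not called, and what sets the SE was not tested.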

Other observations

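Epigenetic and death regulators add to the picture without forming a block. Uhrf1, which carries DNA methylation through replication, fell from 26.4 to 3.16 FPKM (-3.06 ± 0.40 in the authors' deposited table) and Ezh2, the Polycomb methyltransferase, from 4.52 to 1.07 (-2.08 ± 0.44). Dnmt3a fell from 1.90 to 0.825 FPKM and Kdm1a from 1.63 to 0.702, but neither was called after centring, where Uhrf1 and Ezh2 still were. Of 21 genes in the list 1 rose and 6 fell, which turned to 3 and 2 after centring. Birc5, the survivin gene, which is also a mitotic gene, fell from 50.5 to 5.05 (-3.32 ± 0.40), while Casp4, an inflammatory caspase, rose from 5.08 to 20.9 (2.04 ± 0.39 in the authors' deposited table). NRF2 antioxidant genes gave 6 higher and 4 lower of 22 (7 and 0 after centring), among them Gsr, glutathione reductase, at 5.94 and 23.8 FPKM, and Nqo1 at 0.684 and 3.20.

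Sterol and lipid synthesis genes gave 4 higher (16.0%) and 7 lower (28.0%) of 25, near the 12.8% and 26.2% of all members. Cyp51, a sterol demethylase, rose from 5.18 to 20.9 FPKM (2.01 ± 0.38 in the authors' deposited table), whereas Dhcr7, the last step of cholesterol synthesis, fell from 7.21 to 2.15 and the desaturase gene Scd2 from 8.02 to 2.00.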
